A study of Mus musculus with 2 samples.

Results

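Ptbp1, Ptbp2 and Ptbp3 are the 3 mouse genes of the polypyrimidine tract-binding (PTB) protein family, and their levels, isoforms and exons were followed after depletion of Ptbp1. Ptbp3 carries the older symbol Rod1. The genes were taken by name out of 11045 genes that had a RefSeq transcript and a level above 0 in both libraries. Their exons were taken as every exon trio of the SpliceTrap database, that is a middle exon or exon part with its neighbouring exons, whose middle part lay inside the gene on its strand. These were 54 of 228333 trios, and 53 of the 54 had at least 20 reads in each library, the minimum used here. The 1 trio below the minimum, with 28 and 15 reads, is a 165-nucleotide 5′ extension of the second exon of Ptbp1.

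The data came from N2A cells, a mouse neuroblastoma line, in 2 libraries of poly(A) RNA that kept the strand and were read as 100-base pairs. The control library was made from cells given a control shRNA, and the knockdown library from cells given an shRNA against Ptbp1, both 3 days after a transient transfection. With 1 library per condition the differences have no replicate check, and the intervals given here cover counting error only. A lower level in every cell and a lower number of cells with the RNA cannot be told apart in bulk RNA. The control library held 74382387 and the knockdown library 58295142 junction reads, taking the largest deposited count for each of 406367 distinct junctions. Among the neuroblastoma markers with a level in both libraries, Hand2 and Phox2a had read depths of 3254 and 1007 in the control and 2910 and 832 after knockdown, whereas Nefm and Nefl were below 1 in both. Tubb3, another marker of that list, was measured from its RefSeq isoform alone, with depths of 4146 and 2319. Of the 11 markers of other cells, 5 had a level in both libraries, with depths of 0.415 to 20.1 in the control and 0.746 to 22.6 after knockdown. Of the rest, the RefSeq isoforms of Ptprc and Myog were at 0 in the control and at 0.0357 and 0.125 after knockdown, Myod1 and Alb were at 0 in both, and Cd68 had no matched isoform.

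PTB proteins bind pyrimidine-rich RNA through RNA recognition motifs and repress many exons when they bind next to or within them. PTBP1 is found in most dividing cells, PTBP2 takes its place as neurons form, and PTBP3 is best known from blood-forming cells. The family is linked by cross-regulation, and in Ptbp3 the paper names exon 2 as a known target of PTBP1. Each gene also has a homologous short exon before the end of its coding sequence, which shifts the reading frame when it is skipped. The shortened mRNA can then be removed by nonsense-mediated decay, a pathway that destroys mRNAs with an early stop codon. In Ptbp3 this short exon is exon 11, not exon 2, and whether PTBP1 acts on it was not tested.

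The sequences of the alternative exons and of the short exons at the corresponding places are given first, as a description. Whether they bear on the changes in inclusion was not tested. They were read from the mm9 genome on the strand of the gene. Capitals mark every match to TCTT, to CTCTCT or to TTCTCT, which are pyrimidine motifs of the kind PTB proteins bind. These letters were searched on the sense strand of the gene only, and the motifs overlap one another. The 34-nucleotide exon of Ptbp1 is exon 10 of 14 of the RefSeq transcript NM_001077363 and lies at chr10:79324759-79324792 on the plus strand. That of Ptbp2 is exon 10 of 14 of NM_019550, at chr3:119427530-119427563 on the minus strand. That of Ptbp3 is exon 11 of 15 of NM_144904, at chr4:59498211-59498244 on the minus strand. Each is followed by exons of 93, 217 and 78 nucleotides and the last exon. Ptbp3 has another exon of 34 nucleotides, exon 2 of NM_144904, at chr4:59559021-59559054 on the minus strand.
Ptbp1, exon 10: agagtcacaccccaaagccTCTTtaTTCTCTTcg
Ptbp2, exon 10: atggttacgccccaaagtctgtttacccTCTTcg
Ptbp3, exon 11: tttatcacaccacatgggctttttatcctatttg
Ptbp3, exon 2: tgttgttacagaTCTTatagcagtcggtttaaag

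The exon of Ptbp1 and that of Ptbp2 shared 26 of 34 bases, Ptbp1 and Ptbp3 shared 22, and Ptbp2 and Ptbp3 shared 21. Exon 2 of Ptbp3 shared 7 of 34 bases with exon 11 of its own gene and 5 with each of the other two exons, so only its length is the same. The 100 bases of intron upstream of each exon follow, ending at the splice acceptor.
Ptbp1, upstream of exon 10: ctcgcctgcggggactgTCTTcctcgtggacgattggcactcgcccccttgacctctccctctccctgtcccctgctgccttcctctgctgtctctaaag
Ptbp2, upstream of exon 10: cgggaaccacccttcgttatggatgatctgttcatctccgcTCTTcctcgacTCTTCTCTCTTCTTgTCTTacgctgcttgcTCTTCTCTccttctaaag
Ptbp3, upstream of exon 11: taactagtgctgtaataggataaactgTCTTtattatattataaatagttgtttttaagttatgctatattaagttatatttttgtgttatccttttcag
Ptbp3, upstream of exon 2: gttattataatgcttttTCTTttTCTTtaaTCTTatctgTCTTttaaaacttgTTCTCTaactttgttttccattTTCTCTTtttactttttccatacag

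The upstream windows of the 4 exons differed in their pyrimidine content. Cytosine and thymine made up 76.0% of the window of Ptbp3 exon 2, 73.0% of that of Ptbp2 exon 10, 71.0% of that of Ptbp1 exon 10 and 57.0% of that of Ptbp3 exon 11. Over the 119878 distinct exons with 20 reads or more in each library, the median was 55.0%, and 99.3%, 98.6%, 97.7% and 58.1% of these exons had a lower share than the 4 exons in that order. TCTT occurred 5 times upstream of Ptbp3 exon 2, 6 times upstream of Ptbp2 exon 10 and 1 time upstream of each of the other two. TTCTCT occurred 2 times upstream of Ptbp3 exon 2 and 2 times upstream of Ptbp2 exon 10, CTCTCT occurred 1 time upstream of Ptbp2 exon 10, and neither was found in the other two windows. Among all those exons, 63.2% held TCTT, 9.65% held CTCTCT and 13.4% held TTCTCT in the same window. Within the exons themselves, Ptbp1 exon 10 held TCTT 2 times and TTCTCT 1 time, Ptbp2 exon 10 and Ptbp3 exon 2 held TCTT 1 time each, and Ptbp3 exon 11 held none. TCTT was in 39.1%, CTCTCT in 4.97% and TTCTCT in 5.22% of all those exons, whose lengths vary. In the 100 bases downstream, pyrimidines made up 69.0% after Ptbp1 exon 10, 62.0% after Ptbp2 exon 10, 63.0% after Ptbp3 exon 2 and 45.0% after Ptbp3 exon 11, beside a median of 51.0%. TCTT followed Ptbp3 exon 2 2 times and Ptbp2 exon 10 1 time, and was not found after the other two, while CTCTCT and TTCTCT were found after none of the 4. Among all those exons 46.0% held TCTT downstream, 5.53% held CTCTCT and 7.30% held TTCTCT.

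The reading frame was followed on the RefSeq exons from the annotated start codon. The complete frames had 555 codons in Ptbp1, 532 in Ptbp2 and 551 in the Ptbp3 transcript with exon 2. Leaving out the short exon before the 93-nucleotide exon shortened them to 379, 356 and 375 codons. In all 3 genes the new stop codon lay in the 93-nucleotide exon, 361 nucleotides before the last exon junction. Leaving out exon 2 of Ptbp3 while keeping the start codon of the first exon gave a frame of 20 codons. The annotated coding sequence of NM_178164, the RefSeq transcript without exon 2, begins instead at a start codon in the following exon and has 523 codons. Leaving out the 78-nucleotide exon 8 of Ptbp1 kept the frame and gave 529 codons.

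The exon lengths show how far the genes run in parallel. Each gene has an exon of 111 nucleotides in the middle of its coding sequence, and exons of 93, 217 and 78 nucleotides before the last exon. Ptbp1 and Ptbp3 both have an exon of 175 nucleotides followed by an exon of 78, which is alternative in Ptbp1, whereas Ptbp2 has an exon of 196 nucleotides and no exon in that place. Ptbp1 has 1 exon of 320 nucleotides where Ptbp3 has exons of 170 and 147 and Ptbp2 has exons of 173 and 144. The 78-nucleotide exons lie between the second and the third RNA-binding domain of the proteins, the exon of Ptbp1 at chr10:79322862-79322939 on the plus strand and that of Ptbp3 at chr4:59500983-59501060 on the minus strand. They shared 46 of 78 bases.
Ptbp1, exon 8: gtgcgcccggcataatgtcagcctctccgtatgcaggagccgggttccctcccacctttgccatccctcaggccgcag
Ptbp3, exon 9: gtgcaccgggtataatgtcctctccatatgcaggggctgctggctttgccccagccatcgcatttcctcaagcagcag

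Ptbp1, the target of the shRNA, was lower after knockdown at every well covered junction. Of its 30 junctions, 15 had 100 or more reads in the control. Scaled to 1000000 junction reads of each library, these carried 1.72 to 76.2 reads in the control (median 39.2) and 0.652 to 25.8 after knockdown (median 13.7). The log2 ratio of knockdown to control lay between -1.72 and -1.40, with a median of -1.57, so that the lower level extended evenly from the first to the last intron. FPKM is read here only as a ratio between the libraries, since its absolute scale in the files is not the usual one, and its values are given divided by 1000000. The locus had an FPKM of 6183 in the control and 2024 after knockdown. This is a log2 ratio of -1.61, and 40 of the 8416 genes with a depth of 10 or more in the control had a lower one.

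Ptbp2, the neuronal homolog, was higher after knockdown. All 12 of its junctions with 100 or more control reads were higher, with 1.71 to 10.0 reads per 1000000 in the control and 4.79 to 23.2 after knockdown. Their log2 ratios ran from 1.16 to 1.62, with a median of 1.27. The FPKM of the locus was 1456 in the control and 2774 after knockdown, a log2 ratio of 0.93, and 232 of the 8416 genes had a higher one. The size therefore depended on the measure, being 1.91-fold by FPKM and 2.42-fold by junction reads.

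Ptbp3, the third member, was lower after knockdown and changed less than Ptbp1. All 12 of its junctions with 100 or more control reads were lower, with 1.80 to 6.36 reads per 1000000 in the control and 1.46 to 4.24 after knockdown. Their log2 ratios ran from -0.78 to -0.22, with a median of -0.58. The FPKM of the locus was 1199 in the control and 651 after knockdown, a log2 ratio of -0.88. The outermost combinations of the bounds that Cufflinks gave for each library placed it between -1.25 and -0.53, wider than the corresponding range of Ptbp2 (0.78 to 1.08) or Ptbp1 (-1.68 to -1.54).

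The background of these ratios differed between the measures. Over the 8416 genes the median log2 ratio of FPKM was -0.11, and over the 83378 junctions with 100 or more control reads the median was 0.06. Of the 3 genes, 1 was lower by 2-fold or more in the FPKM of the locus and none was higher by 2-fold or more. Both counts depended on the measure, since Ptbp3 was at -1.32 by the FPKM and at -1.10 by the depth of its RefSeq isoforms, and Ptbp2 was at 1.27 by junction reads. Among the 11045 genes 3.18% were lower and 11.6% higher by as much, and among the 8416 genes with a depth of 10 or more 1.95% were lower and 2.32% higher. Of all junctions, 0.451% had a log2 ratio of -1 or less and 0.957% a ratio of 1 or more.

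**Figure D1:**
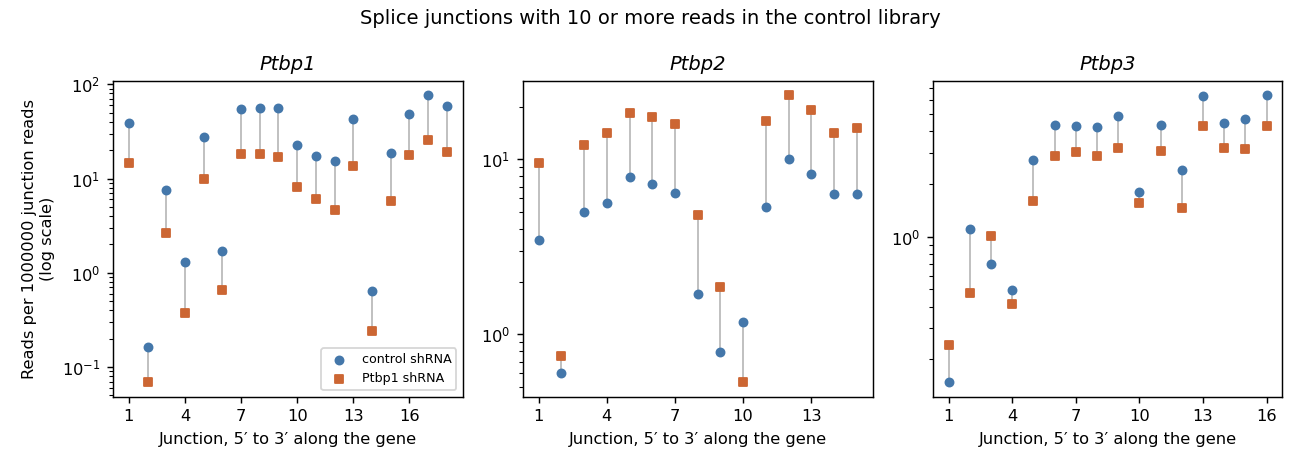
Reads per 1000000 junction reads (log axis) at each splice junction with 10 or more control reads, in order along Ptbp1, Ptbp2 and Ptbp3; circles are the control and squares the knockdown library, joined by a line. In Ptbp1 the squares lie below the circles throughout, in Ptbp2 above them except at the junction that skips exon 10, and in Ptbp3 below them except at the junctions that join exon 2.

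The levels of the 3 genes relative to one another also changed. By FPKM, which is a measure per length, Ptbp1 stood highest in the control with 6183, ahead of Ptbp2 with 1456 and Ptbp3 with 1199. In the knockdown library Ptbp2 stood highest with 2774, followed by Ptbp1 with 2024 and Ptbp3 with 651. The medians of junction reads per 1000000 gave the same orders, with 39.2, 6.33 and 4.32 for Ptbp1, Ptbp2 and Ptbp3 in the control and 15.5 for Ptbp2, 13.7 for Ptbp1 and 3.06 for Ptbp3 after knockdown. The RefSeq isoforms alone gave another order after knockdown, with 1740 for Ptbp1 and 867 for Ptbp2. The ranges of the junctions overlapped between all pairs of genes in the control, and after knockdown between Ptbp1 and each of the other two, but not between Ptbp2 and Ptbp3.

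Among genes with a control FPKM within 2-fold of each member, those with the closest log2 ratio were taken as the most alike over these 2 libraries. For Ptbp1 (499 genes compared) these were Sub1 (-1.68), Fn1 (-1.69) and 4930513N10Rik (-1.69). For Ptbp2 (2641 genes) they were Ahsa2 (0.89), Xist (0.89) and Tsc22d1 (0.89). For Ptbp3 (2966 genes) they were Ptch1 (-0.88), Atpaf2 (-0.88) and Pygb (-0.89).

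Exon inclusion was described as PSI, the percentage of transcripts that contain the middle exon, as estimated by SpliceTrap. Of the 53 trios, 5 had a PSI higher by 5 points or more after knockdown, beside 2.73% of all 145628 trios that passed the same minimum. None had a PSI lower by 5 points or more, beside 2.66%. A 95% Newcombe interval was also computed for the difference in junction inclusion. It left out 0 for 3 of the 5, and 0.746% of all trios met both conditions. Of these 3, 1 was in Ptbp2 and 2 were in Ptbp3. The 2 of Ptbp3 hold the same middle exon, exon 2, with the same junctions, so they are not separate exons. The database lists 45 of the 54 trios as constitutive, 6 as cassette exons, 2 as alternative acceptors and 1 as an alternative donor, and none as a retained intron. Of the 6 cassette trios 2 were higher by 5 points or more and none was lower, beside 16.4% and 15.0% of 7740 cassette trios. Several trios share an exon, and the 53 trios stand for 42 distinct middle exons. The median change was 0 points for the 53 trios and for all trios.

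**Figure D2:**
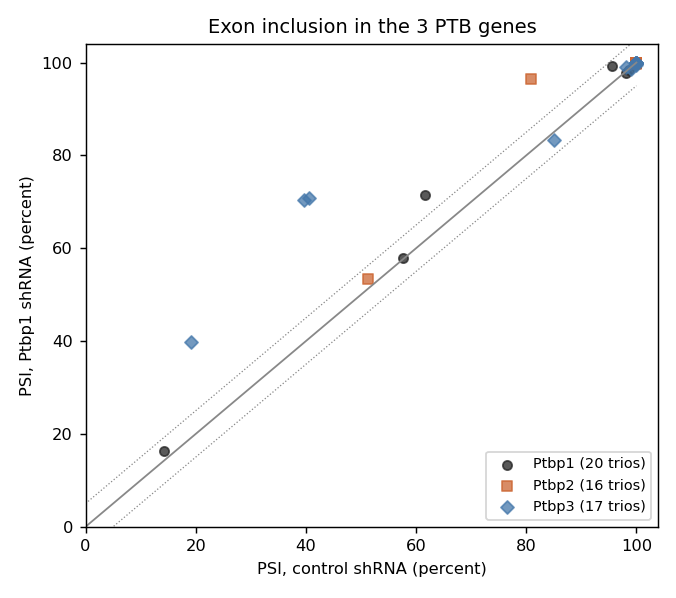
PSI in the control (x axis, percent) against PSI after knockdown (y axis, percent) for the 53 trios of the 3 genes, with the line of equality and dotted lines 5 points to either side. Most points lie at the upper right corner, 5 lie above the upper dotted line and none below the lower one.

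Exon 10 of Ptbp2, whose skipping gives the early stop codon, was included more often after knockdown. Its PSI was 80.9 in the control and 96.5 after knockdown, a difference of 15.6 points. In the control library 53 reads joined it to the exon upstream, 399 to the exon downstream and 87 skipped it. In the knockdown library these counts were 105, 961 and 31. The skipping reads were thus fewer although the gene as a whole had more reads: per 1000000 junction reads they went from 1.17 to 0.532, while the junction that joins exon 10 to the next exon went from 5.36 to 16.5. From junction reads alone, inclusion was 72.2% (95% Wilson interval 67.0 to 76.9) in the control and 94.5% (92.3 to 96.1) after knockdown, and the difference of 22.3 points had a Newcombe interval of 17.1 to 27.8. These values average the 2 inclusion junctions, whose counts were unequal, and with the larger one alone inclusion was 82.1% and 96.9%, a difference of 14.8 points.

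Exon 10 of Ptbp1, at which the protein is known to lower its own mRNA, showed no such difference. Its PSI was 98.7 in the control and 98.5 after knockdown. In the control library 3180 reads joined it to the exon upstream, 1335 to the exon downstream and 48 skipped it. In the knockdown library the counts were 797, 317 and 14. Junction inclusion was 97.9% (97.3 to 98.4) and 97.6% (95.9 to 98.5), and the interval of the difference, from -2.07 to 0.821 points, included 0. Skipping reads therefore made up a small share of the reads at this exon in both libraries, at a level of Ptbp1 that differed by 3.06-fold in FPKM.

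Exon 11 of Ptbp3, the exon in the corresponding place, was not seen to be skipped. Its PSI was 99.9 in both libraries. It had 123 and 471 inclusion reads in the control and 53 and 247 after knockdown, and 0 skipping reads in each. The lower Wilson bounds of its inclusion were 98.7% and 97.5%, and 3 reads, taken as the most that a count of 0 allows, would be 1.01% and 2.00% of the mean of its inclusion junctions. The 3 homologous exons thus ranked differently in their share of skipping reads in the control, with Ptbp2 highest, Ptbp1 next and Ptbp3 with none. The Wilson intervals of Ptbp2 and Ptbp1 did not overlap. Skipped mRNA already removed by nonsense-mediated decay would not be counted, and its amount was not measured for any of these exons.

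Exon 2 of Ptbp3, which shares no more than its length with the others, had the largest change of the 3 genes. In the trio of the cassette class its PSI was 39.6 in the control and 70.3 after knockdown, and in a second trio with the same exon 40.6 and 70.8. The first trio had 11 and 52 inclusion reads and 81 skipping reads in the control, and 14 and 59 against 27 after knockdown. Before scaling to the size of the libraries, the number of inclusion reads was thus nearly the same, and the number of skipping reads was lower. Per 1000000 junction reads, over all trios, the skipping junction went from 1.10 to 0.480 and the junction of exon 2 with the next exon from 0.699 to 1.01. The interval of the difference in junction inclusion was 14.3 to 43.1 points.

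**Figure D3:**
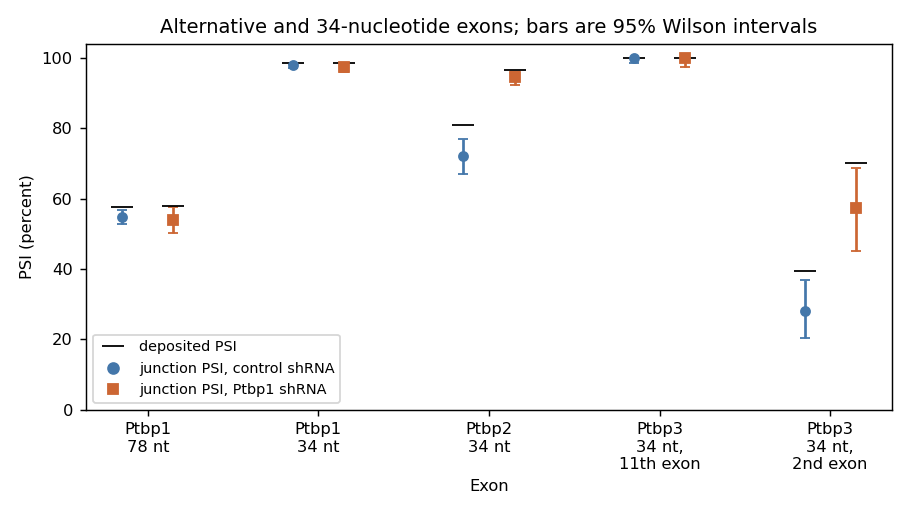
PSI (percent) of the alternative 78-nucleotide exon of Ptbp1 and of the 34-nucleotide exons of the 3 genes; circles (control) and squares (knockdown) are junction PSI with 95% Wilson intervals, and black dashes are the deposited PSI. The symbols of Ptbp2 and of the second exon of Ptbp3 lie apart between the libraries (72.2 and 94.5, 28.0 and 57.5), and those of the other exons lie within each other's intervals.

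The exon that follows exon 2 in Ptbp3 has alternative donor sites, which give lengths of 82 and 73 nucleotides. The longer form was used at a PSI of 85.1 in the control and 83.4 after knockdown, with 180 reads against 28 for the shorter form in the control and 87 against 15 after knockdown, and the interval of the difference, -10.3 to 6.46 points, included 0. Another trio of the 73-nucleotide form, with exon 2 as its upstream neighbour, had a PSI of 19.1 and 39.8. In it 0 reads skipped the exon in either library, while 4 and 31 reads included it in the control and 5 and 23 after knockdown. The change in this PSI thus had no skipping reads behind it, and the junction interval, from -21.5 to 18.0 points, was wide.

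Exon 8 of Ptbp1 was included in a little over 1 in 2 of the transcripts of both libraries. PTBP1 protein without it is known as a weaker repressor of some exons. Its PSI was 57.6 in the control and 58.0 after knockdown. There were 1684 upstream, 1132 downstream and 1163 skipping reads in the control, and 469, 268 and 314 after knockdown. Junction inclusion was 54.8% (52.8 to 56.7) and 54.0% (50.2 to 57.7), with an interval of the difference of -4.98 to 3.41 points. The corresponding exon 9 of Ptbp3 had a PSI of 99.9 in both libraries.

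The other alternative sites of Ptbp1 differed little between the libraries. An acceptor inside exon 4 that removes 120 nucleotides of it was used less often than the outer one. The PSI of the longer form was 98.2 and 97.7, with 59 and 20 reads on the shorter form in that trio. Over all trios the largest counts from exon 3 to the inner acceptor were 128 and 38, beside 2054 and 577 to the outer one. A trio that joins exon 3 to this inner acceptor had a PSI of 14.3 and 16.4, with 96 and 22 reads that skipped exon 3 and a junction inclusion of 60.2% and 68.4% (interval of the difference -4.99 to 19.7 points). A trio of exon 9 with exon 7 as its neighbour had a PSI of 61.6 in the control and 71.4 after knockdown. It had 1193 and 1023 inclusion reads against 1 skipping read in the control and 327 and 289 against 0 after knockdown. Its junction interval of -1.14 to 0.509 points included 0, and the trio of the same exon with exon 8 as its neighbour had a PSI of 99.9 in both. A trio of exon 9 of Ptbp2 likewise had a PSI of 51.2 and 53.3 with 0 skipping reads in either library, and a second trio of that exon had 99.9 and 99.9. For these trios, in exons 3 and 9 of Ptbp1, exon 9 of Ptbp2 and exon 3 of Ptbp3, the deposited PSI and the junction reads gave different values.

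The remaining exons were included almost without exception. In 44 of the 53 trios PSI was 95 or more in both libraries, as in 87.1% of all trios. These were 17 of 20 trios in Ptbp1, 14 of 16 in Ptbp2 and 13 of 17 in Ptbp3, and their changes ran from -0.5 to 3.8 points. The change of 3.8 points belonged to a trio of a 196-nucleotide form of exon 2 of Ptbp1, with a PSI of 95.5 and 99.3. Only 2 and 1 reads joined exon 1 to the acceptor of this form, beside 2916 and 850 at the acceptor of the 31-nucleotide form. The 321 and 96 reads at the donor are shared by both forms, so this PSI does not measure how often the longer form was used. The depth behind the trios ran from 75 to 63557 reads in the control and from 92 to 20697 after knockdown, with medians of 1842 and 1280.

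The isoforms that Cufflinks assembled for Ptbp2 and Ptbp3 were sorted by whether they contained the alternative exon. For Ptbp2 the control locus held NM_019550 and 3 assembled isoforms. Those with exon 10 had 855 FPKM and those without it 345 in the control, and 2153 and 318 after knockdown. The share with exon 10 was 71.3% in the control (65.8 to 76.2 from the outermost Cufflinks bounds) and 87.1% (84.9 to 89.2) after knockdown. The isoforms with exon 10 were thus higher by 2.52-fold, while those without it had a ratio of 0.923. For the isoforms without it the junction reads went apart from this ratio, since the skipping junction fell from 1.17 to 0.532 reads per 1000000, a log2 ratio of -1.14. Junction inclusion after knockdown, 94.5% (92.3 to 96.1), also lay above the FPKM share of 87.1%. A further isoform in each library did not span the exon, with 256 and 303.

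In Ptbp3 the isoforms without exon 2 were lower by FPKM and by junction reads, whereas the measures differed for those with it. With exon 2 the summed FPKM was 415 in the control and 385 after knockdown, a ratio of 0.926. Without it, in NM_178164 alone, it was 615 and 186, a ratio of 0.302. The junctions on either side of exon 2 went from 0.148 to 0.240 and from 0.699 to 1.01 reads per 1000000, with log2 ratios of 0.70 and 0.53, so they were higher where the FPKM was slightly lower. The share with exon 2 was 40.3% (31.2 to 48.7) and 67.4% (53.5 to 79.0). Of the isoforms with exon 2, NM_144904, which has the 73-nucleotide form of the next exon, had 105 and 103. The assembled isoform with exon 2 and the 82-nucleotide form had 311 in the control and 281 after knockdown. A partial isoform at the 3′ end had 168 and 80.7.

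For Ptbp1 the isoform estimates and the junction reads went further apart. In the control library NM_001077363, which contains exon 8, had 3704 FPKM and NM_008956, which lacks it, had 2478, so that the share with the exon was 59.9%. In the knockdown library NM_001077363 was listed at 0, NM_008956 had 1740 and an assembled isoform of 12 exons that contains exon 8 had 283, a share of 14.0%. The knockdown file extended NM_001077363 at its 5′ end to a length of 3779 nucleotides, beside 3099 in the control file. The junction reads of exon 8, with 469 and 268 inclusion reads after knockdown, showed the exon to be present there, and its junction inclusion of 54.0% was far above 14.0%. The split of the Ptbp1 level between its isoforms after knockdown is therefore given as deposited only. The locus FPKM of 2024 is the sum of these isoform levels, so the log2 ratio of -1.61 rests on them, whereas the median of -1.57 over the junctions does not.

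**Figure D4:**
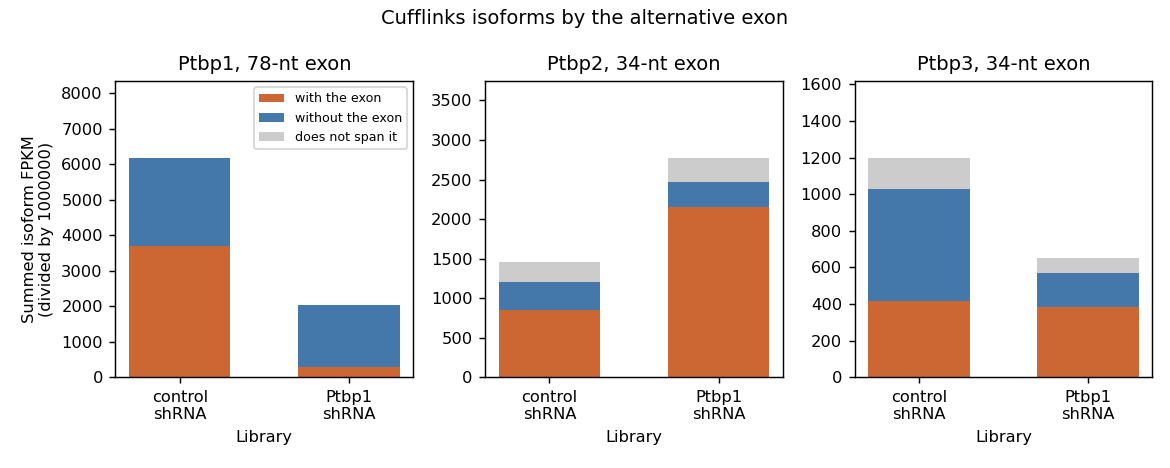
Summed FPKM (divided by 1000000, linear axis from 0) of the Cufflinks isoforms with, without and not spanning the alternative exon, for exon 8 of Ptbp1, exon 10 of Ptbp2 and exon 2 of Ptbp3. In Ptbp2 the part with the exon goes from 855 to 2153, in Ptbp3 the part without it goes from 615 to 186, and in Ptbp1 the part with it goes from 3704 to 283, which the junction reads do not show.

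Most other genes of the PTB network differed by less than 2-fold in level. The list held 18 genes, namely 10 partners and other RNA-binding proteins and 8 genes of nonsense-mediated decay, and 13 of them had a locus of their own in both libraries. Of the 13, 1 was higher by 2-fold or more, none was lower and 12 were neither, with a median log2 ratio of -0.25, beside 2.32% higher, 1.95% lower and a median of -0.11 over the 8416 genes. The higher gene was Smg6, the nuclease of the decay pathway, at 1.01, on the edge of the threshold. Its read depths were 199.5 in the control and 300.8 after knockdown, less than 2-fold before scaling to library size, so the call rests on the FPKM. Upf1, the helicase of that pathway, was at -0.27, and Srrm4, a neuronal splicing activator, at 0.02. Hnrnpl, an RNA-binding protein related to PTB, had the lowest value of the 13 with -0.79, and 4.09% of the 8416 genes had a lower one. Khsrp, another RNA-binding protein, was at 0.62, with 93.2% of those genes lower. Hnrnpl, Khsrp and Smg1 were named after their values were seen. The other 5 genes were read from their RefSeq isoforms alone. Raver1, a co-repressor of PTBP1, was at -0.54, Matr3, a nuclear matrix protein that binds PTB, at -0.09, Smg1, a kinase of the decay pathway, at -0.92 and Pcbp2, an RNA-binding protein of poly(C) tracts, at -1.05, past 2-fold, and Raver2 was listed at 0 in both libraries.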

How the data were processed

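The members and lists were chosen with earlier results of these data known. The authors made strand-specific libraries of poly(A) RNA from N2A cells. Per the labels CASAVA, TopHat and Cufflinks were used with mm9, without versions. The SpliceTrap files deposited by the authors hold inclusion ratios as a fraction from 0 to 1, junction read counts and coverage as a signal per 100 bases. The Cufflinks files deposited by the authors hold FPKM and depth per base (a coverage signal), and the exon positions and a score in the transcript file; the score was not used.

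PSI was the corrected fraction times 100. Trio reads were coverage on the full trio times its length over 100, with a minimum of 20 in each library. Junction PSI used the mean of the inclusion junctions, or the single true junction at alternative sites, with 95% Wilson and Newcombe intervals. The Newcombe interval alone was tested on simulated counts, with control shares below the near-complete inclusion of many exons here. The intervals count reads, not molecules. RefSeq identifiers were matched to symbols through a GRCm38 table, 26472 of 27601 in the control and 26475 of 27604 in the knockdown library. A gene was compared where its RefSeq isoforms lay in 1 locus with no other symbol. The log2 ratio of FPKM had a pseudocount of 1. Genes of the lists without such a locus were read from their RefSeq isoforms. Exons described were the 34-nucleotide exons, the 78-nucleotide exon of Ptbp1 and every exon that differed by 5 points with an interval leaving out 0; other trios were described after their values were seen. The genome was NCBIM37 (mm9), on which 95.6% of the exons had AG before and GT or GC after them. Python 3.11.15, pandas 2.3.3 and numpy 2.4.6 were used. Alternatives were other read minimums, uncorrected ratios, junction PSI, 10 points, 1 trio per exon, other pseudocounts and scales, and, chosen after seeing the data, junction reads scaled to 1000000. Some genes of the marker lists are not reported here.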

Additional observations from a re-analysis of the deposited data

Results flagged for a closer look

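Transcripts assembled inside the genes but outside their loci were not part of the comparisons and had a larger summed level in the knockdown library. In Ptbp2, between exons 8 and 9, 5 transcripts with a summed FPKM (divided by 1000000) of 382 were assembled in the control library and 4 with 498 in the knockdown library. The Ptbp2 locus itself went from 1456 to 2774. In Ptbp3 there was none in the control library and 1 of 109 nucleotides with 646 in the knockdown library, inside the intron after exon 2. Its FPKM was close to the 651 of the Ptbp3 locus in that library, but its depth per base was 154, beside 293 for the locus. With 1 library each these differences have no replicate check.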

How the results depend on the processing

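No paired analysis was possible because each group has 1 library, and for the same reason no library could be left out. Of 80 alternative values, 61 moved by no more than their interval or, for a count of trios, by no more than 1.5 times, and 19 by more, and none of those called changed sign. The counts of trios higher or lower by 5 points were 4 or 5 and 0 under every alternative in the plan. The 4 by junction PSI leave out the trios of exon 9 of Ptbp1 and exon 3 of Ptbp3 and take in a trio of exon 3 of Ptbp1 with 8.10 points (-4.99 to 19.7). The difference in exon 10 of Ptbp2 was 15.6 points, 22.3 by the mean junction and 14.8 by the larger junction alone. The trio of exon 9 of Ptbp1 went from 9.8 points to 0.0902 by junction reads, and that of exon 3 of Ptbp3 from 20.7 to 0.

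The log2 ratio of Ptbp1 was -1.15 with FPKM divided by the library median and -1.83 from RefSeq isoforms. That of Ptbp2 was 1.37 and 0.61 under these settings and 1.27 by junction reads, which puts it past 2-fold in the first and the last, and that of Ptbp3 was -0.41 and -1.32, and -1.10 by depth per base, past 2-fold in the RefSeq isoforms by either measure. The cause was not tested. The knockdown library had more assembled loci, 51207 beside 42813. With assembled isoforms counted, NM_008956 made up 86.0% in place of 100% of Ptbp1 in the knockdown library, and NM_019550 39.1% and 31.3% of Ptbp2 in place of 100%. NM_178164 made up 51.4% and 28.5% of Ptbp3, in place of 85.5% and 64.3%, and NM_144904 15.8% in place of 35.7% in the knockdown library.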
